A study of Mus musculus with 18 samples.

Results

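Kruppel-like factors are zinc finger transcription factors, and 10 of their genes other than Klf4 are described here in the retinal pigment epithelium (RPE) of mice. The genes are Klf2, Klf3, Klf5, Klf6, Klf7, Klf9, Klf10, Klf11, Klf13 and Klf15. They were taken by symbol from a table of 21859 gene rows, and all 10 passed the filter on low counts, as did 15944 rows in all. Klf4 was kept apart because it is itself delivered by one of the vectors, and its reads cannot be split into vector and endogenous transcripts.

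The RPE is the pigmented layer behind the photoreceptors, and its polyA RNA was sequenced in 18 libraries. Young mice gave 7 libraries (Young) and aged mice without a vector gave 4 (Old). Aged mice given the adeno-associated virus vector AAV2-tTA gave 3 (Old-Control), and aged mice given AAV2-tTA;TRE-OSK gave 4 (Old-OSK). tTA is a transactivator that drives genes placed behind the TRE promoter, so both vector groups carry tTA and Old-OSK also carries Oct4 (gene symbol Pou5f1), Sox2 and Klf4. Strain, sex, ages in months, vector dose, the promoter of tTA and the time after injection are not given in the sources used here. Nor is it stated whether a library is 1 animal or a pool, so p-values measure the spread between libraries, which may in part be technical.

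Kruppel-like factors bind GC-rich and CACCC-type DNA sequences through a conserved run of zinc fingers at the C terminus, and their N termini recruit different partners. Klf2, Klf5, Klf6 and Klf7 act mainly as activators. Klf3 recruits the corepressor CtBP, Klf9, Klf10, Klf11 and Klf13 recruit the corepressor Sin3a, and Klf15 is known for its part in amino acid and glucose metabolism. Several are best known from particular cells or signals. Klf2 is a flow-induced gene of endothelium, Klf5 a gene of proliferating epithelia such as the cornea and conjunctiva, and Klf9 and Klf15 respond to glucocorticoid hormone.

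Library totals lay between 18104828 and 32348136 counts. The first principal component of log2 CPM (counts scaled to library size) held 46.5% of the variance, and Old replicate 4 (score 73.2) and Old-Control replicate 2 (61.8) lay among the 4 Old-OSK libraries (45.7 to 96.0) on it. An unexplained M stands in the names of 6 libraries, which are 3 of Young (replicates 5, 6 and 7), 2 of Old-Control (2 and 3) and 1 of Old-OSK (4). These 6 also had 4040 to 5493 counts on Y-linked genes against at most 93 in each other library. No Old library has an M. The 13 RPE markers were abundant everywhere, with a summed level of 41340 to 67450 CPM in Young, 28180 to 49060 in Old, 21350 to 64370 in Old-Control and 16190 to 30920 in Old-OSK. Genes of other ocular cells were present too. The 9 keratins and other genes of ocular surface epithelium (cornea and conjunctiva), a list added after the values were seen, were all detected and summed to 208 to 6245 CPM in Young, 1026 to 21210 in Old, 1372 to 5358 in Old-Control and 3922 to 30140 in Old-OSK. In such bulk tissue, fewer cells of a type and less RNA per cell cannot be told apart.

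The stretches of DNA just before the starts of 4 members are printed because these genes stand for the patterns described below: Klf2 varied with endothelial genes, Klf3 and Klf6 were high in the same libraries, and Klf15 was low in Old-OSK. They are the 250 bases before the RefSeq start in GRCm38.p6, on the strand of the gene, ended where the first annotated transcript begins. RefSeq windows were matched for 8 of the 10 members (not Klf5 and Klf10). Capitals mark the GC box GGGCGG, which Sp and Kruppel-like factors bind, the E-box CACGTG, which the clock proteins bind, and the palindromic MEF2 site, each searched on both strands.

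Klf2: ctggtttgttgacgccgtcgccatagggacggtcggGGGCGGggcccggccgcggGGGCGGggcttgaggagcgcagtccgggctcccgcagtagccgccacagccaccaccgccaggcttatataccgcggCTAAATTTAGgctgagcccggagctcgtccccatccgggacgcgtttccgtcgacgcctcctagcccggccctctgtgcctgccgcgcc
Klf3: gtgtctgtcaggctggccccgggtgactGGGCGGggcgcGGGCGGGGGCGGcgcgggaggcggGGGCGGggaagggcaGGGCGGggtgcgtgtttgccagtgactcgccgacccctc
Klf6: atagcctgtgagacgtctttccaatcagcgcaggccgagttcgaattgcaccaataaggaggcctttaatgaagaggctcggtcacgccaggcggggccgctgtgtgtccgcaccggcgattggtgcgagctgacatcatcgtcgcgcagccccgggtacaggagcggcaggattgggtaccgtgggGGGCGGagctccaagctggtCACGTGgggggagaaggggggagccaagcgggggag
Klf15: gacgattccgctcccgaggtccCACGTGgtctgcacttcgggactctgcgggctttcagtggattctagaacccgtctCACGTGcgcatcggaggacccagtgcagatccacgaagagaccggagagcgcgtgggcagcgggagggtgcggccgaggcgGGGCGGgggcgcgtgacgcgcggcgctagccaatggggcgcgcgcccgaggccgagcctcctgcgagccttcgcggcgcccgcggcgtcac

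These lie at chr8:72318812-72319032 (plus strand, Klf2), chr5:64803271-64803387 (plus strand, Klf3), chr13:5861239-5861481 (plus strand, Klf6) and chr6:90462326-90462575 (plus strand, Klf15). GC boxes occurred in 7 of the 8 windows, all but that of Klf9, against 32.7% of 32851 RefSeq windows of the same length. Klf3 had 6 of them, without overlap, and the sixth (89 bases before the start) lies outside the stretch printed. E-boxes occurred in the windows of Klf6, Klf11 and Klf15 (3 of 8, against 6.02%), and Klf15 had them 228 and 172 bases before its start. A MEF2 site occurred only in the window of Klf2, 118 bases before the start, against 0.0396% of all windows. The motifs CCACACCC (3.2% of windows), TGACGTCA (1.55%), TATAAA (12.4%) and ATGCAAAT (1.6%) matched no member. These matches describe the letters and say nothing about binding.

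Levels of different genes are compared per kilobase of exon. In Young, Klf9 had the highest level at 17.6 ± 1.88 CPM per kilobase (SD, n = 7), followed by Klf15 at 14.9 ± 2.90, and their libraries overlapped. Every Young library had Klf15 above Klf13 (8.06 ± 0.633), the next in order. Below these came Klf6 (6.76), Klf3 (5.31), Klf2 (4.04), Klf5 (3.23), Klf10 (2.29), Klf11 (2.28) and Klf7 (1.33), and each neighbouring pair overlapped. In Old-OSK the order of the means began with Klf5 (19.4 ± 9.47 CPM per kilobase, n = 4), Klf9 (16.4 ± 2.60) and Klf6 (16.3 ± 4.51), again with overlapping neighbours.

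The members differed widely in how constant they were. Between the highest and the lowest of the 18 libraries, Klf5 differed 61.0-fold in CPM and Klf2 9.39-fold. The corresponding ratio was 4.64 for Klf6, 3.39 for Klf10, 3.30 for Klf15, 3.10 for Klf3 and 2.79 for Klf11. Klf7 (1.94), Klf13 (1.63) and Klf9 (1.59) varied least. The lowest counts behind these values were 43 for Klf5 and 60 for Klf2.

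**Figure D1:**
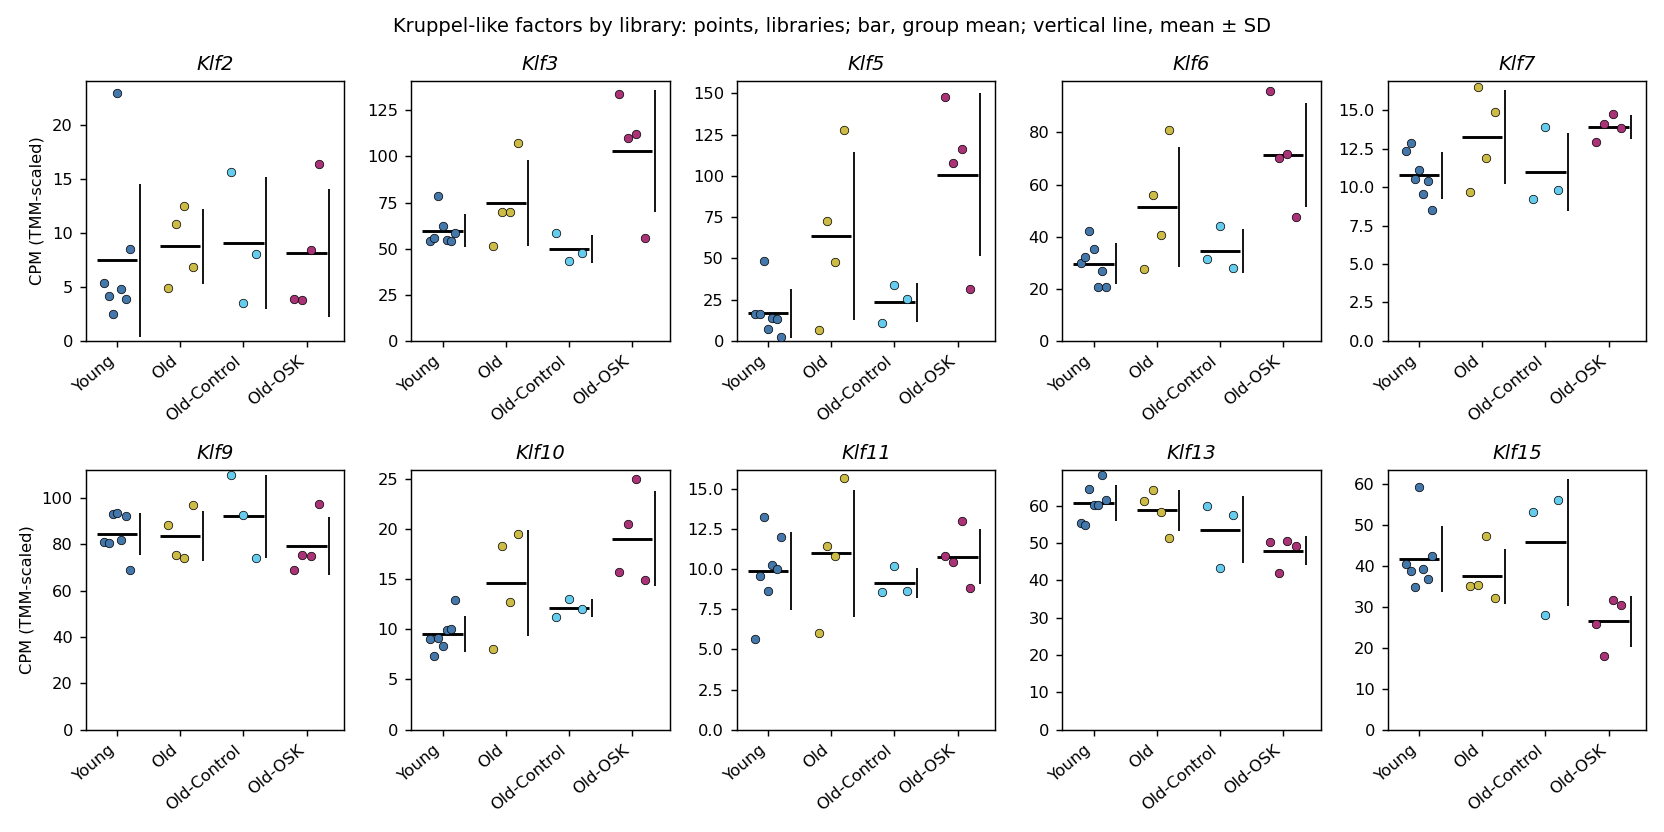
CPM of each Kruppel-like factor (vertical axis, linear from 0) in the 18 libraries, by group. Points are libraries, horizontal bars group means and vertical lines mean ± SD. Klf5 reached 147.5 CPM in an Old-OSK library and 2.42 CPM in a Young one, while Klf9 stayed between 69.0 and 109.8 CPM.

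No member passed the test in any comparison. In edgeR's quasi-likelihood test a gene is called when its p, adjusted over all 15944 genes by the Benjamini-Hochberg method, is under 0.05. In Old against Young 0 of 10 members were called, against 9.56% of all genes, and 3 had an unadjusted p under 0.05, against 29% of all genes. In Old-OSK against Old-Control 0 of 10 were called, against 0.728%, and 5 had an unadjusted p under 0.05, against 26.3%. In Old-Control against Old 0 of 10 were called, against 0%, with 1 at an unadjusted p under 0.05 (3.74% of all genes). In Old-OSK against Old, which shares its libraries with the other comparisons, 0 of 10 were called, against 0.84%, with 2 at an unadjusted p under 0.05 (15.7%). DESeq2 called 3 members in Old against Young (15.4% of all genes) and 3 in Old-OSK against Old-Control (11.6%). It called 0 in Old-Control against Old (0%) and 0 in Old-OSK against Old (2.8%). The median log2 fold change of the members was 0.27 in Old against Young, where that of all genes was -0.0044, and 0.29 in Old-OSK against Old-Control, where that of all genes was -0.028. It was -0.27 in Old-Control against Old (all genes 0.037) and 0.021 in Old-OSK against Old (all genes 0.060).

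Klf5, an activator of epithelial proliferation, had the widest range. Its level was 2.42 to 48.6 CPM in Young, with a median of 13.9 (n = 7). In Old it was 6.61, 72.3, 47.5 and 127.9 CPM in replicates 1 to 4. Old-Control libraries had 10.6, 33.7 and 25.5 CPM, and Old-OSK libraries 147.5, 107.7, 116.5 and 31.5 CPM. Old replicate 4 and Old-OSK replicates 1, 2 and 3 were thus the highest, followed by Old replicate 2. Old replicate 1 lay among the low Young libraries, and the groups of every comparison overlapped. Fold changes on the log2 scale were 1.92 in Old against Young (SE 0.66, edgeR adjusted p = 0.0724) and 2.11 in Old-OSK against Old-Control (SE 0.89, adjusted p = 0.148), neither of them called. DESeq2 called the first (1.92, SE 0.70, adjusted p = 0.0442) and not the second (adjusted p = 0.075). The second was called by edgeR in the 3 numbered pairs that leave out Old-OSK replicate 4 (2.41, adjusted p = 0.0322), with Klf3 and Klf6, and not with the replicate block in those pairs (2.53, adjusted p = 0.0513). Without Old replicate 4 the log2 fold change of Old against Young was 1.32 (adjusted p = 0.341), and without Old replicate 1 it was 2.29 and called (adjusted p = 0.0224), as it was without Young replicate 3 (2.46, adjusted p = 0.022).

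Klf6, a widely expressed activator that is induced early after injury in several tissues, followed a similar order of libraries over a narrower range. Young libraries had 20.7 to 42.4 CPM, with a median of 29.7 (n = 7). Old libraries had 27.7, 56.0, 40.6 and 81.0 CPM, and Old-Control libraries 31.4, 44.1 and 28.0 CPM. Old-OSK libraries had 96.0, 70.3, 71.8 and 47.5 CPM. All 4 Old-OSK libraries lay above the 3 Old-Control libraries, while Old overlapped with both Young and Old-OSK. In Old against Young the log2 fold change was 0.79 (SE 0.26, edgeR adjusted p = 0.0609), and it was 1.05 in Old-OSK against Old-Control (SE 0.33, adjusted p = 0.0886). DESeq2 called both (adjusted p = 0.0297 and 0.0252). Without Old replicate 4 the first was 0.48 (adjusted p = 0.341). It was called without Old replicate 1 (1.00, adjusted p = 0.0173) and without Young replicate 3 (0.90, adjusted p = 0.0357). The second was called without Old-Control replicate 2 (1.23, adjusted p = 0.0362) and without Old-OSK replicate 4 (1.17, adjusted p = 0.0391).

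Klf7, which is known for its part in axon growth of neurons, varied little between libraries. It was at 8.49 to 12.9 CPM in Young, with a median of 10.6, and at 9.67, 16.5, 11.9 and 14.9 CPM in Old. Old-Control libraries had 9.20, 13.9 and 9.84 CPM, and Old-OSK libraries 12.9, 14.1, 14.8 and 13.9 CPM. The Old-OSK libraries were the closest together, and Old-Control replicate 2 lay among them. Klf7 had a log2 fold change of 0.30 in Old against Young (95% confidence interval -0.030 to 0.62) and 0.34 in Old-OSK against Old-Control (-0.062 to 0.74).

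Klf2, which keeps endothelium quiescent and anti-inflammatory under flow, varied widely within each group. Young libraries had 2.45 to 23.0 CPM, with a median of 4.80. Old libraries had 4.89, 10.8, 12.5 and 6.87 CPM, Old-Control libraries 15.7, 3.55 and 8.02 CPM and Old-OSK libraries 3.92, 3.78, 8.39 and 16.4 CPM. Young replicate 4, Old-OSK replicate 4 and Old-Control replicate 1 were the highest, and the groups overlapped throughout. Klf2 had a log2 fold change of 0.23 in Old against Young, with a 95% confidence interval of -0.98 to 1.45, and -0.15 in Old-OSK against Old-Control, with one of -1.64 to 1.34. Each interval holds differences of more than 2-fold, which were not detectable here.

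Klf3, a repressor that works through CtBP, came closest to the threshold after OSK. Young libraries had 54.2 to 78.6 CPM, with a median of 55.5 (n = 7), and Old libraries 51.5, 69.8, 69.8 and 107.3 CPM. Old-Control libraries had 58.3, 43.2 and 47.7 CPM, and Old-OSK libraries 133.7, 110.1, 112.1 and 55.7 CPM. Old-OSK replicates 1, 2 and 3 lay above every library of the other groups, whereas Old-OSK replicate 4 lay below Old-Control replicate 1. The log2 fold change in Old-OSK against Old-Control was 1.05 (SE 0.26, edgeR adjusted p = 0.0631). With a replicate block, in the 3 numbered pairs that leave out Old-OSK replicate 4, it was 1.26 (SE 0.11, adjusted p = 0.0442). Klf3 was then called, as were 3.02% of all genes, though pairs 2 and 3 each join libraries with and without an M. It was also called by DESeq2 (adjusted p = 0.00575), without Old-OSK replicate 4 (1.22, adjusted p = 0.0076) and without Old-Control replicate 2 (0.92, adjusted p = 0.0403). In Old-Control against Old the log2 fold change was -0.59 (SE 0.26, unadjusted p = 0.0354, edgeR adjusted p = 0.90), and Old replicate 1 lay within the range of Old-Control.

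Among the genes that act through Sin3a, Klf10 is an early response gene of TGF-beta. It was at 7.39 to 13.0 CPM in Young, with a median of 9.13 (n = 7), and at 8.09, 18.3, 12.7 and 19.5 CPM in Old. Old-Control libraries had 11.3, 13.1 and 12.1 CPM, and Old-OSK libraries 15.8, 20.6, 25.1 and 14.9 CPM. Every Old-OSK library lay above every Old-Control library. Klf10 had a log2 fold change of 0.62 in Old against Young (SE 0.21, edgeR adjusted p = 0.0663) and 0.65 in Old-OSK against Old-Control (SE 0.26, adjusted p = 0.136). The first was called by DESeq2 (adjusted p = 0.0327), without Old replicate 1 (0.82, adjusted p = 0.011) and without Young replicate 7 (0.70, adjusted p = 0.0484), and was 0.45 without Old replicate 4 (adjusted p = 0.306). Klf6 and Klf10 were the 2 members of 10 whose Old-OSK and Old-Control libraries did not overlap, against 12.4% of all genes.

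Klf9 and Klf11 showed no difference beyond their spread. Klf9, a glucocorticoid and thyroid hormone target, was at 69.0 to 93.5 CPM in Young, with a median of 81.9, and at 88.4, 75.3, 74.2 and 96.8 CPM in Old. Old-Control libraries had 109.8, 92.5 and 74.0 CPM and Old-OSK libraries 69.1, 75.5, 74.7 and 97.5 CPM. Its log2 fold change was -0.015 in Old against Young (95% confidence interval -0.27 to 0.24) and -0.22 in Old-OSK against Old-Control (-0.53 to 0.095), so the groups overlapped and changes of more than 1.5-fold lay outside both intervals. Klf11, a close relative of Klf10, was at 5.64 to 13.3 CPM in Young, with a median of 9.99, and at 6.04, 11.5, 10.8 and 15.7 CPM in Old. Old-Control libraries had 8.57, 10.2 and 8.65 CPM and Old-OSK libraries 10.8, 10.5, 13.0 and 8.84 CPM. Its highest library was Old replicate 4 and its log2 fold changes were 0.15 (-0.33 to 0.63) and 0.24 (-0.35 to 0.83) in the same comparisons.

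Klf13, known from lymphocytes as an activator of the chemokine gene Ccl5, had a narrow range. Young libraries had 54.9 to 68.3 CPM, with a median of 60.2 (n = 7), and Old libraries 61.3, 64.2, 58.2 and 51.4 CPM. Old-Control libraries had 60.0, 43.3 and 57.5 CPM, and Old-OSK libraries 50.2, 42.0, 50.6 and 49.1 CPM. All 4 Old-OSK libraries were below all Old libraries, but Old-Control replicate 2 lay among them. In Old-OSK against Old the log2 fold change was -0.29 (SE 0.11, unadjusted p = 0.0138, edgeR adjusted p = 0.202). It was -0.16 in Old-OSK against Old-Control (SE 0.11, adjusted p = 0.405) and -0.045 in Old against Young (SE 0.095, adjusted p = 0.786).

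Klf15, which in liver and muscle drives amino acid catabolism and gluconeogenesis, was lowest in Old-OSK. Young libraries had 34.9 to 59.1 CPM, with a median of 39.2 (n = 7), and Old libraries 35.0, 35.3, 47.1 and 32.1 CPM. Old-Control libraries had 53.1, 27.8 and 56.1 CPM, and Old-OSK libraries 25.7, 17.9, 31.7 and 30.3 CPM. The Old-OSK libraries lay below every Old library, and Old-Control replicate 2 was again inside their range. The log2 fold change was -0.79 in Old-OSK against Old-Control (SE 0.24, edgeR adjusted p = 0.0841), -0.50 in Old-OSK against Old (SE 0.22, adjusted p = 0.286) and -0.16 in Old against Young (95% confidence interval -0.57 to 0.26). The first was called by DESeq2 (adjusted p = 0.0362), without Old-Control replicate 2 (-1.07, adjusted p = 0.00793) and without Old-OSK replicate 4 (-0.90, adjusted p = 0.0438). Klf13 and Klf15 were the 2 members of 10 whose Old-OSK and Old libraries did not overlap, against 8.15% of all genes. No member had non-overlapping libraries in Old against Young (9.3% of all genes) or in Old-Control against Old (3.18%).

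**Figure D2:**
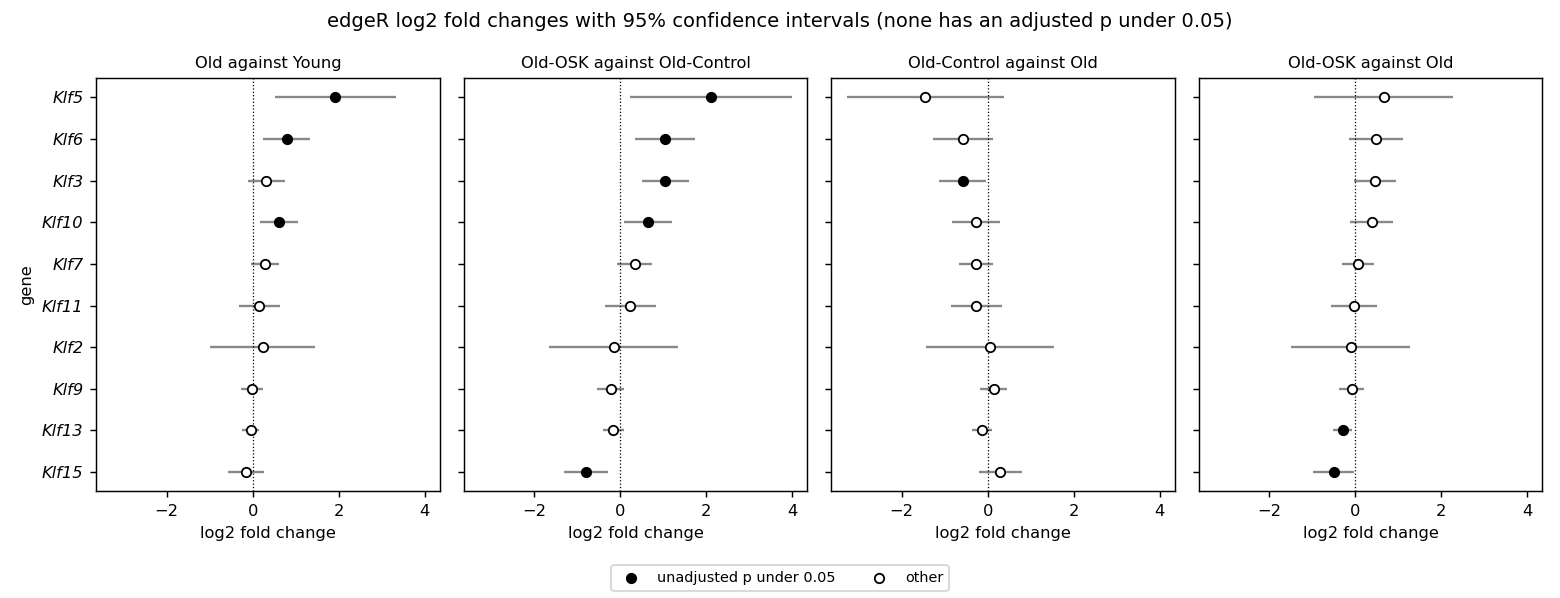
Log2 fold change of each member in the 4 comparisons (horizontal axis), with its 95% confidence interval from edgeR. Filled points have an unadjusted p under 0.05. Klf5 has the largest fold changes in Old against Young (1.92) and Old-OSK against Old-Control (2.11) and wide intervals, and Klf9 and Klf13 lie within 0.3 of 0 throughout.

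Which libraries were high did not follow the groups alone. Old replicate 4 was the highest of the 4 Old libraries for 6 of 10 members (Klf3, Klf5, Klf6, Klf9, Klf10 and Klf11), and Old replicate 1 was the lowest for 7. In Old-OSK, replicate 4 was the lowest for 5 members (Klf3, Klf5, Klf6, Klf10 and Klf11). Old-Control replicate 2 was the highest of its group for Klf5, Klf6, Klf7, Klf10 and Klf11 and the lowest for Klf2, Klf3, Klf13 and Klf15. A further alternative, chosen after the data were seen, left out both Old replicate 4 and Old-Control replicate 2. These lie among the Old-OSK libraries on the first principal component, so leaving them out tends to part Old-OSK from both groups. The calls of this alternative are therefore not separate support. With it, 23.3% of all genes were called in Old-OSK against Old-Control. Klf3 (0.92, edgeR adjusted p = 0.021) and Klf6 (1.23, adjusted p = 0.0166) were called higher in it. Klf13 (-0.32, adjusted p = 0.0398) and Klf15 (-1.07, adjusted p = 0.00438) were then called lower, and Klf13 also in Old-OSK against Old (-0.38, adjusted p = 0.0131), as were 13.9% of all genes. In Old against Young 0 members were called in that edgeR fit (3.89% of all genes), and Klf5 had a log2 fold change of 1.33 (adjusted p = 0.302).

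**Figure D3:**
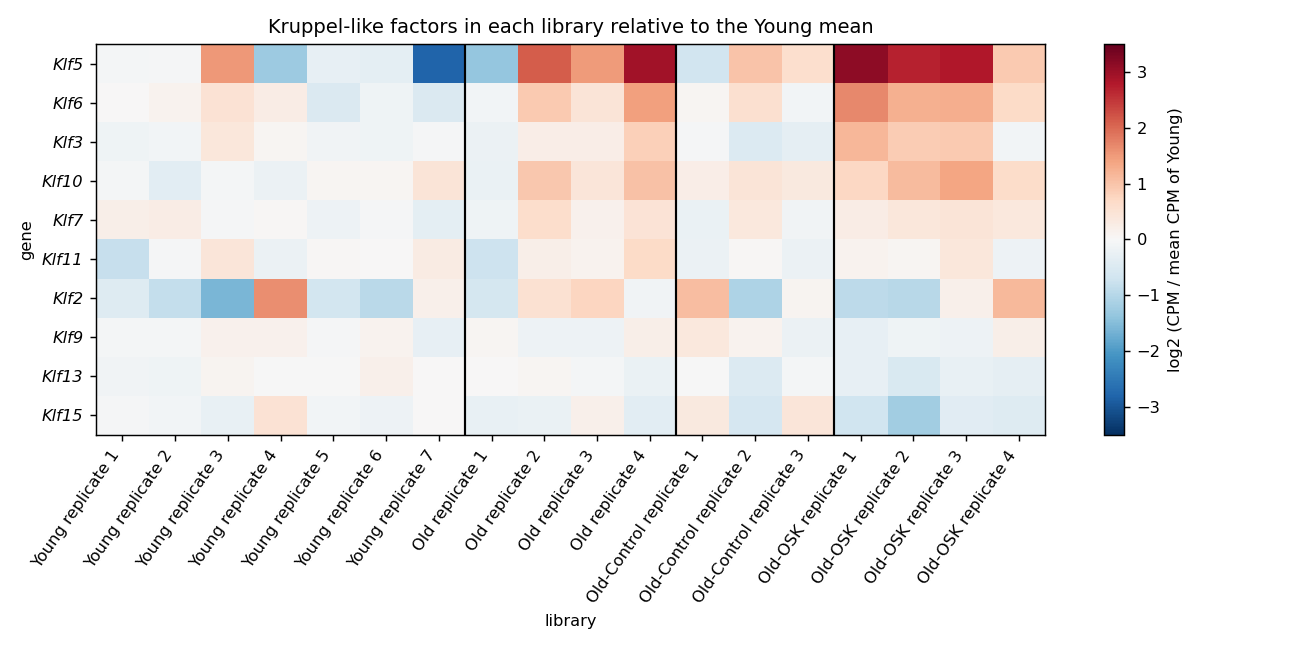
Each member (rows) in each of the 18 libraries (columns) as log2 of its CPM over the mean CPM of Young, from blue (lower) to red (higher). Klf5, Klf6, Klf3 and Klf10 are red in Old replicate 4 and Old-OSK replicates 1, 2 and 3, and Klf13 and Klf15 are blue in the Old-OSK libraries and Old-Control replicate 2.

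Within Young, 3 of the members separated the libraries with an M in their names from those without. Klf6 was at 20.7 to 26.9 CPM in the 3 with M and at 29.7 to 42.4 CPM in the 4 without. Klf7 was likewise lower with M (8.49 to 10.4 against 10.6 to 12.9 CPM) and Klf10 higher (9.96 to 13.0 against 7.39 to 9.13 CPM). The other 7 overlapped. How many of all genes separate these libraries was not computed, so the 3 members cannot be set against that share. When M entered the fit as a covariate, Old against Young gave log2 fold changes of 1.63 for Klf5 (edgeR adjusted p = 0.18), 0.62 for Klf6 (adjusted p = 0.158) and 0.69 for Klf10 (adjusted p = 0.0997). Among the libraries without M alone, 4 Young against 4 Old, these were 1.52, 0.55 and 0.79 (adjusted p = 0.303, 0.29 and 0.143). Libraries with M hold no Old sample. In Old-OSK against Old-Control, where each stratum leaves a single library in a group, only the covariate was fitted, and it gave 0.85 for Klf3 (adjusted p = 0.141), 0.79 for Klf6 (adjusted p = 0.228) and -0.82 for Klf15 (adjusted p = 0.161).

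Klf5 varied with the genes of ocular surface epithelium, a list added after the values were seen, so the match is not separate support. Its log2 CPM correlated with log2 of the summed CPM of those 9 genes with r = 0.989 over the 18 libraries (Spearman rho 0.977), and with r = 0.985 over the 11 Young and Old libraries. Over the 18 libraries r was 0.922 for Klf6, 0.77 for Klf7, 0.746 for Klf3 and 0.702 for Klf10. Over the 11 Young and Old libraries it was 0.892, 0.793, 0.774 and 0.535 in the same order. Other lists were also close over the 18 libraries. Klf6 had r = -0.886 with markers of retinal Muller glia and -0.778 with RPE markers, and Klf7 had -0.774 and -0.722. Klf5 had -0.758 and -0.718. Over the 11 Young and Old libraries these were -0.956 and -0.854 for Klf6, -0.751 and -0.628 for Klf7 and -0.777 and -0.749 for Klf5. For Klf3 they were -0.808 and -0.788 there. Both lists hold Rlbp1, and Apoe (mean 9289 CPM in Young) and Rlbp1 (5170) weigh heavily in the Muller sum. These correlations are descriptions over libraries that share a tissue and, within groups, a treatment. In Old against Young, all 9 epithelial genes had positive fold changes, and the median log2 fold change was 2.29. An unadjusted p under 0.05 was found for 8, against 29% of all genes. Called higher by edgeR were 3 of the 9 (33.3%, against 9.56% of all genes), Krt14 and Aldh3a1 among them. In Old-OSK against Old-Control 0 of 9 were called by edgeR and 6 had an unadjusted p under 0.05 (26.3% of all genes), with a median of 2.35. Krt14, a keratin of basal epithelial cells, was at 90.7 ± 99.2 CPM in Young (SD, n = 7), 519 ± 424 in Old (n = 4), 189 ± 114 in Old-Control (n = 3) and 992 ± 531 in Old-OSK (n = 4).

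The mean log2 CPM of these 9 genes was entered as a covariate, an alternative chosen after the data were seen. The log2 fold change of Klf5 was then -0.043 in Old against Young (SE 0.26, edgeR adjusted p = 0.957) and 0.071 in Old-OSK against Old-Control (SE 0.30, adjusted p = 0.979). For Klf6 it was 0.13 (SE 0.16) and 0.38 (SE 0.18). Klf3 had -0.076 (SE 0.19) with age and 0.60 (SE 0.22) after OSK, and Klf10 had 0.43 (SE 0.26) and 0.48 (SE 0.29). Klf15 had -0.59 (SE 0.26) after OSK. No member was called with this covariate in any comparison. This score itself differed between the groups, so a difference of group and one of epithelial RNA cannot be told apart by it.

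**Figure D4:**
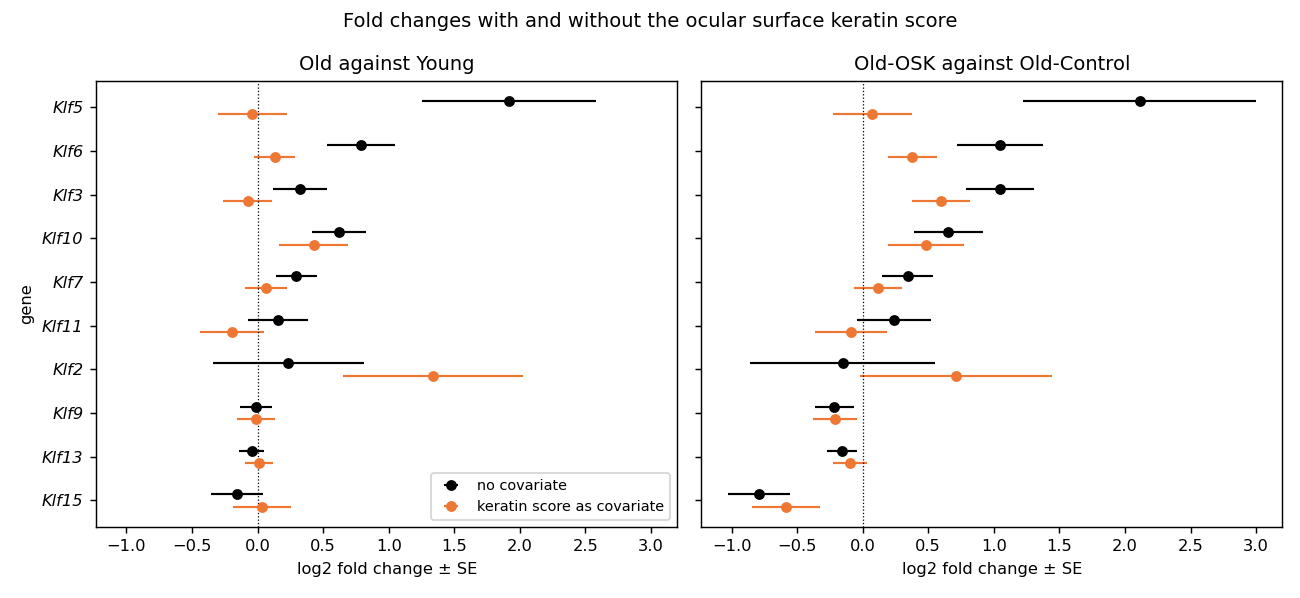
Log2 fold change ± SE of each member in Old against Young (left) and Old-OSK against Old-Control (right), without a covariate (black) and with the score of 9 ocular surface genes (orange). The list of these genes was added after the values were seen. Klf5 goes from 1.92 to -0.043 and from 2.11 to 0.071, whereas Klf9 and Klf15 after OSK move by less than their SE.

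Among libraries without OSK, Klf4 too was highest in Old replicate 4 and lowest in Young replicate 7. It was at 5.68 to 51.0 CPM in Young, at 11.7, 69.6, 44.0 and 216.2 CPM in Old and at 24.2, 31.4 and 33.6 CPM in Old-Control. Over the 11 Young and Old libraries, which carry no vector, log2 CPM of Klf4 correlated with that of Klf6 with r = 0.979, of Klf3 with 0.912 and of Klf5 with 0.909. In Old-OSK it was at 431.6, 362.2, 334.2 and 155.0 CPM, a sum of vector and endogenous reads, and replicate 4 was the lowest there as for Klf3, Klf5 and Klf6.

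Klf2 went with the endothelial markers, and Klf15 and Klf13 went with the RPE markers less closely in libraries without a vector than over all. Klf2 correlated with log2 of the summed CPM of the 12 endothelial markers with r = 0.771 over the 18 libraries (rho 0.703) and 0.822 over the 11 Young and Old libraries. The summed level of those markers was 96.8 to 347 CPM in Young, highest in replicate 4, and 115 to 431 in Old. It was 204 to 262 CPM in Old-Control and 78.2 to 366 in Old-OSK, highest in replicate 4, and no marker of the 12 was called in any comparison (edgeR). At an unadjusted p under 0.05 there were 2 in Old against Young (29% of all genes) and 0 in the others. Klf15 correlated with the 13 RPE markers with r = 0.843 over the 18 libraries (rho 0.868) and 0.546 over the 11 Young and Old libraries (rho 0.691). For Klf13 the corresponding r was 0.857 (rho 0.664) and 0.452 (rho 0.191). Of the RPE markers, 0 of 13 were called in Old-OSK against Old-Control, 11 had an unadjusted p under 0.05 (26.3% of all genes), and the median log2 fold change was -0.90. Every endothelial and RPE marker was detected. Macrophage and microglia markers rose in Old against Young (10 of 12 called higher and 0 lower, against 9.56% of all genes called, median log2 fold change 1.96). Their summed level was 492 to 682 CPM in Young, 706 to 1191 in Old, 862 to 1112 in Old-Control and 758 to 956 in Old-OSK. Csf1r weighs heavily in these sums, at means of 493.6 CPM in Young, 391.2 in Old and 198.4 in Old-OSK. Fold changes were positive for 11 of the 12 in Old-OSK against Old (median 0.61) and for 10 in Old-OSK against Old-Control (median 0.39), with 0 called by edgeR. What the macrophage, RPE and endothelial markers contribute to the members' values was not tested.

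**Figure D5:**
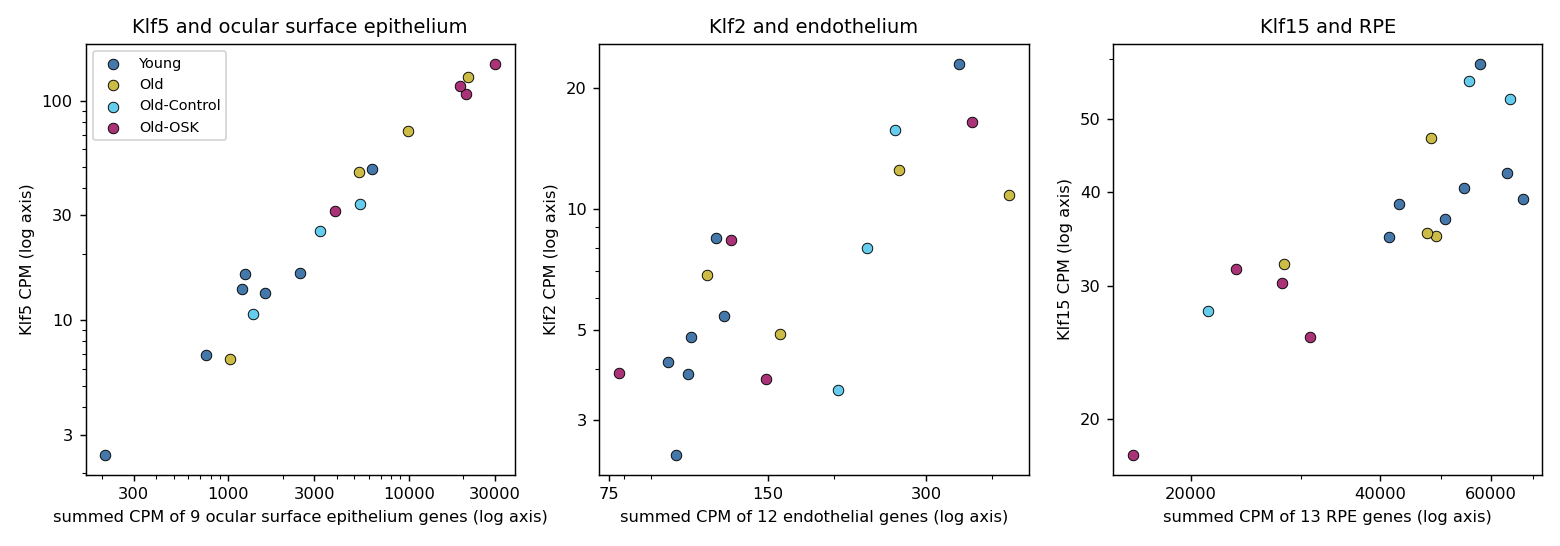
CPM of Klf5, Klf2 and Klf15 against the summed CPM of 9 ocular surface epithelium, 12 endothelium and 13 RPE genes, each point a library coloured by group (both axes logarithmic). Klf5 follows the epithelial genes most closely and Klf2 the endothelial genes more loosely (r = 0.989 and 0.771 on the log2 scale). The ocular surface list was added after the values were seen.

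The genes most like each member were taken by Pearson r of log2 CPM over the 18 libraries among 10233 genes of at least 3 in mean log2 CPM. For Klf5 they were Cdh1, which encodes E-cadherin (r = 0.994), and Adh1 (0.992). Klf6 was most like Ankrd13a (0.973) and the AP-1 gene Fosl2 (0.971), Klf3 most like Cpd (0.972) and Tmem123 (0.966), and Klf10 most like the immediate early gene Ier2 (0.886) and Pdlim1 (0.881). For Klf2 they were the endothelial genes Vwf (0.848) and Egfl7 (0.845), both of them on the marker list. Klf13 was most like AU040320 (0.937) and Jade2 (0.929), and Klf15 most like Wdr91 (0.902) and Nr2e1 (0.90). The nearest gene was Crip2 for Klf7 (0.886) and Dip2b for Klf11 (0.852), and Klf9 had the loosest nearest neighbour of the 10 members (Ttbk2, 0.749).

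In the rest of the family, 11 of 16 further KLF and SP genes in the table passed the filter. In Old against Young 2 of the 11 were called higher and 0 lower, Klf4 (log2 fold change 2.18, SE 0.60, edgeR adjusted p = 0.0347) and Klf16 (0.69, SE 0.21, adjusted p = 0.046). That is 18.2% of the list, against 9.56% of all genes. Klf16, another repressor that recruits Sin3a, was at 5.79 ± 0.935 CPM in Young (SD, n = 7) and 9.34 ± 3.20 CPM in Old (n = 4). For Klf4 and Klf16 the Old and Young libraries overlapped. Single genes other than the members were not followed without Old replicate 4, where calls over all genes fell from 1524 to 393. None of the 11 was called in the other comparisons, with 3, 1 and 1 at an unadjusted p under 0.05 in Old-OSK against Old-Control, Old-Control against Old and Old-OSK against Old. The shares of all genes at such a p were 26.3%, 3.74% and 15.7%. Klf4 after OSK had a log2 fold change of 3.43 (SE 0.85, adjusted p = 0.0631). Of 13 cofactors and ubiquitin ligases of these factors (CtBP, Sin3, histone deacetylases and acetyltransferases, and ligases such as WWP1), 0 were called in any comparison by edgeR, with 4 (age), 7 (OSK against control vector), 0 (control vector) and 5 (OSK against Old) at an unadjusted p under 0.05. Of all genes 29%, 26.3%, 3.74% and 15.7% had such a p in the same order.

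Signals known to induce members were examined through lists of their targets. Immediate early genes are transcribed within minutes of a stimulus, as Klf6 and Klf10 can be. Of 16 such genes, edgeR called 6 higher in Old against Young and 0 lower, with a median log2 fold change of 0.97. That is 37.5% of the list, against 9.56% of all genes. Atf3 rose by 2.35 (SE 0.47, edgeR adjusted p = 0.00695), Junb by 1.79 (SE 0.42, adjusted p = 0.0194) and Myc by 2.00 (SE 0.54, adjusted p = 0.0334). The Old and Young libraries overlapped for Junb and Myc, but not for Atf3. In Old-OSK against Old-Control 0 of 16 were called, 5 had an unadjusted p under 0.05 (26.3% of all genes) and the median was 0.78. None was called by edgeR in Old-Control against Old or Old-OSK against Old, with 1 in each at an unadjusted p under 0.05 (3.74% and 15.7% of all genes). Junb was at 16.8 ± 7.26 CPM in Young, 58.1 ± 37.0 in Old, 33.5 ± 17.5 in Old-Control and 96.7 ± 33.8 in Old-OSK.

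Of 18 glucocorticoid response genes, relevant to Klf9 and Klf15, Cebpd (0.66, SE 0.15, edgeR adjusted p = 0.0166) and Cdkn1a (1.56, SE 0.43, adjusted p = 0.0355) rose in Old against Young. Cebpd, a transcription factor of the acute phase, was also higher in Old-OSK than in Old (1.31, SE 0.18, adjusted p = 0.00103), at 55.7 ± 5.16 against 22.4 ± 2.52 CPM. Old-Control lay between them at a mean of 37.8 CPM, with a log2 fold change of 0.76 over Old (SE 0.19, unadjusted p = 0.00085, edgeR adjusted p = 0.90, every Old-Control library above every Old library). In Old-OSK against Old-Control it was 0.56 (SE 0.19, adjusted p = 0.0977), and the groups overlapped. None of the 18 was called lower by edgeR in any comparison. The 2 called with age were 11.1% of this list, against 9.56% of all genes, and the Old and Young libraries overlapped for Cdkn1a. Fold changes were positive for 9 of the 18 with age (median -0.0022) and for 9 in Old-OSK against Old-Control (median -0.028). Of 17 TGF-beta response genes, relevant to Klf10 and Klf11, Tgfb1 alone was called (0.82 in Old against Young, SE 0.15, adjusted p = 0.00433). Of 12 genes of the amino acid and glucose metabolism that Klf15 regulates elsewhere, Gpt alone was called (0.71 in Old against Young, SE 0.19, adjusted p = 0.0339), and it was higher. Tgfb1 is 5.88% of its list and Gpt 8.33% of its list, against 9.56% of all genes called in Old against Young. Of 12 genes of the ERK5, MEF2 and Klf2 pathway of endothelium 0 were called in any comparison by edgeR, with 3 at an unadjusted p under 0.05 in Old against Young and 0 in the others. Of all genes 29% had such a p in Old against Young.

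The circadian clock, whose output includes Klf9, Klf10 and Klf15, had 19 genes tested. None was called by edgeR in any comparison, with 1 at an unadjusted p under 0.05 in Old against Young, 7 in Old-OSK against Old-Control, 0 in Old-Control against Old and 6 in Old-OSK against Old. Of all genes 29%, 26.3%, 3.74% and 15.7% had such a p in the same order. The median log2 fold change of the clock genes was -0.14 with age and -0.21 in Old-OSK against Old-Control. The summed level of the clock genes was 1828 to 2112 CPM in Young, 1558 to 1828 in Old, 1495 to 1866 in Old-Control and 1321 to 1607 in Old-OSK. The time of day of collection is not given in the sources used here.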

How the data were processed

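RPE RNA of 18 mouse libraries was measured as counts per gene. The authors deposited 1 table of raw counts, and the submitters' processing notes name STAR 2.7.1a, featureCounts 1.6.2 and the builds GRCh38, hg38, GRCm38 and mm10 without saying which was used for what. Per the labels' protocols, cDNA was amplified with a SMART-Seq kit, which does not mark strand, so antisense reads cannot be told apart. Each column's name matched 1 library title. Members and gene lists were chosen with earlier results of these data known.

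Genes were filtered with filterByExpr (minimum count 10, minimum total 15), scaled by TMM and fitted with glmQLFit and glmQLFTest of edgeR 4.0.16 (R 4.3.3), all 18 libraries and 4 group means together, with Benjamini-Hochberg adjustment over 15944 genes. CPM values are TMM-scaled. The pipeline was tested on simulated data. All members are named, with tests printed for those with an unadjusted p under 0.05, and confidence intervals for the others. Of each list up to 3 called genes with the lowest p are named, and likeness was computed on log2 CPM with a prior count of 2. Exon lengths are from GENCODE M21, promoters from RefSeq. Alternatives were DESeq2 1.42.0, other filters and scalings, robust fits, the compared groups alone, covariates, a replicate block and libraries left out.

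No 2 replicates of a group were alike within sampling noise (the lowest chi-square per gene was 21.2 in 36 pairs). In Old-OSK against Old-Control, libraries of the same number deviated together from their group means (r = 0.103, 0.421 and 0.339). The numbers were taken to pair them on this check alone, and not in the other comparisons. The pairing is unsure. In numbers 2 and 3 the Old-Control library has an M (5493 and 5013 Y-linked counts) and the Old-OSK library has none (15 and 4). In Old-Control against Old, which was not taken as paired, r was 0.197, -0.189 and 0.359.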

Additional observations from a re-analysis of the deposited data

Results flagged for a closer look

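In 4 of the 30 combinations of member and group checked, 1 library lay far from the others of its group (about 1 in 20 is flagged by chance, 1.5 here). All are in Young. Klf2 in Young replicate 4 was at 22.98 CPM against 2.446 to 8.494 in the other 6, in the Young library with the highest endothelial markers. Klf15 in the same library was at 59.14 CPM against 34.89 to 42.41. Klf5 in Young replicate 3 was at 48.55 CPM against 2.419 to 16.38, and Klf3 in that library at 78.63 CPM against 54.17 to 62.31. Young replicate 3 had the highest ocular surface epithelium genes of its group, 6245 CPM in sum.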

How the results depend on the processing

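The 11 fold changes of members with an unadjusted p under 0.05 kept their direction under all alternatives run, except Klf5 in Old against Young with the ocular surface score as a covariate (-0.043, the cause was not tested). Of the alternatives, these moved counts of calls. For Old against Young (1524 genes, 0 members) all-gene counts were 600 with M as a covariate, 0 with the replicate block, 191 in the paired libraries and in those without M (the same 8), 400 with the ocular surface score, 622 without both Old replicate 4 and Old-Control replicate 2, and 2452 with DESeq2 (3 members). Leaving out 1 library gave 393 (without Old replicate 4) to 2140 (without Old replicate 1) genes and 0 to 3 members. For Old-OSK against Old-Control (116 genes, 0 members) they were 2 in the groups alone, 58 with M, 461 with the replicate block (1 member, Klf3), 990 in the paired libraries without the block (3 members, Klf3, Klf5 and Klf6), 35 with the score, 3729 without both libraries (4 members) and 1640 with DESeq2 (3 members). Leaving out 1 library gave 13 (without Old-Control replicate 1) to 2881 (without Old-Control replicate 2) genes and 0 to 3 members. For Old-OSK against Old (134 genes, 0 members) they were 74 in the groups alone and in the paired libraries, 1 with the block, 86 with the score, 2228 without both libraries (1 member) and 446 with DESeq2, and 50 (without Old-OSK replicate 2) to 1045 (without Old replicate 4) without 1 library. In those paired libraries the block thus ended the calls of Klf5 and Klf6 (edgeR adjusted p = 0.0322 and 0.0334 without it, 0.0513 for both with it). In the other comparisons no member was called with the block, and in Old-Control against Old 0 genes were called with or without it. With 3 or 4 libraries in each aged group, the counts rest on single libraries, and fold changes of members with few counts (Klf2) are imprecise.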
